A study of Rattus norvegicus with 10 samples.

Results

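The genes described here are 45 rat genes of DNA repair and damage signalling, followed in 5 mammary tumors before and after adriamycin. They were listed by what their products do, as members of 7 repair pathways, with earlier results of these data known. Of the 45 genes, 44 had at least 1 array probe set carrying their symbol alone, among 14217 genes so measured, and Atm was not analysed here. A gene is represented by its brightest such probe set. Of the 44, 43 lay above the 25% of probe sets with the lowest mean over all arrays and entered the tests, and Polk did not.

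The tumors came from Sprague-Dawley females given DMBA (7,12-dimethylbenz(a)anthracene) once by mouth at 100 mg/kg, a carcinogen whose metabolites bind DNA and which gives mammary carcinomas in this strain. The basal group (n = 5) held needle (trucut) biopsies of untreated tumors, taken at 12 weeks of age. The final group (n = 5) held the same 5 tumors (in the labels 09I1, 11D2, 12I1, 29I1 and 43D1) at 19 weeks of age, after adriamycin at 1 mg/kg per week for 6 weeks through the tail vein. All animals of both groups had received DMBA, and the tumors had been selected for one histological grade. The sample labels describe the final sample as the tumor at sacrifice, while the design text describes it as a needle sample. There was no untreated tumor at 19 weeks, and the codes in the sample titles form separate runs in the groups. Treatment, age, kind of sample and whatever these code runs stand for therefore cannot be told apart. Whether 2 of the tumors shared a rat is not stated in the labels, and p-values measure only the spread between these samples.

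Adriamycin (doxorubicin) is an anthracycline that traps topoisomerase II on cut DNA and leaves double-strand breaks. Such breaks are sensed by the kinases Atm and Atr, which act through Chek2 and Chek1, and are mended by end joining or, after replication, by recombination that uses the sister chromatid as template. Base excision, nucleotide excision and mismatch repair act on damaged or mispaired bases, and the Fanconi pathway on crosslinks. Many genes of recombination and replication-linked repair are transcribed mainly in S and G2 phase, under E2F factors, so that their messages are more abundant where more cells divide.

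Values are log2 levels from Affymetrix arrays, normalized by robust multichip averaging, and a difference of 1 log2 unit is a doubling. The luminal epithelial markers had a mean level between 10.76 and 11.04 on the basal and between 10.29 and 11.20 on the final arrays, and all 8 lay above the filter. One array, the final one of 09I1, differed from the rest. The gap between its 3' and 5' actin control probe sets, a measure used for RNA integrity, was 2.61 log2 units, while it lay between 0.72 and 0.96 on the other 9. Across probe sets, its correlation with another array had a median of 0.938, where the remaining arrays had 0.975 to 0.984. For genes with values in every array, the mean change is also given without tumor 09I1 where that moves it by over 1.5 times. In whole tumor samples, fewer cells of a type and less RNA per cell cannot be told apart.

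Within a tumor most repair genes shared a direction, and that direction was not the same from one tumor to the next. In tumor 09I1, 32 of the 44 genes were higher in the final sample, with a median change (final minus basal) of 0.45 log2 units. In 12I1, 36 of 44 were higher, with a median of 0.17. In 11D2 only 10 of 44 were higher (median -0.12), in 29I1 7 of 44 (median -0.21) and in 43D1 6 of 44 (median -0.35). Over all 12255 genes tested, the share that was higher stayed near the middle, at 58.6%, 56.9%, 47.1%, 45.7% and 48.9% in the same order of tumors, and the median changes were 0.15, 0.05, -0.02, -0.04 and -0.01. These counts describe the tumors, since genes measured on the same arrays are not independent. Marker lists of other cell types also differed within tumors, and those with a mean change over 1 log2 unit, red blood cells aside, were these. In 09I1 the T and NK cell list had a value of 1.23 and the adipocyte list 1.24. In 11D2 the skeletal muscle list had 4.18, the adipocyte list 2.13 and the fibroblast list 1.07. The 29I1 values were 1.10 for myoepithelium, -1.21 for macrophages and -1.49 for both fibroblasts and adipocytes, and the 43D1 values 1.32 for T and NK cells and 1.09 for macrophages. Their part in the changes of the repair genes was not tested.

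**Figure D1:**
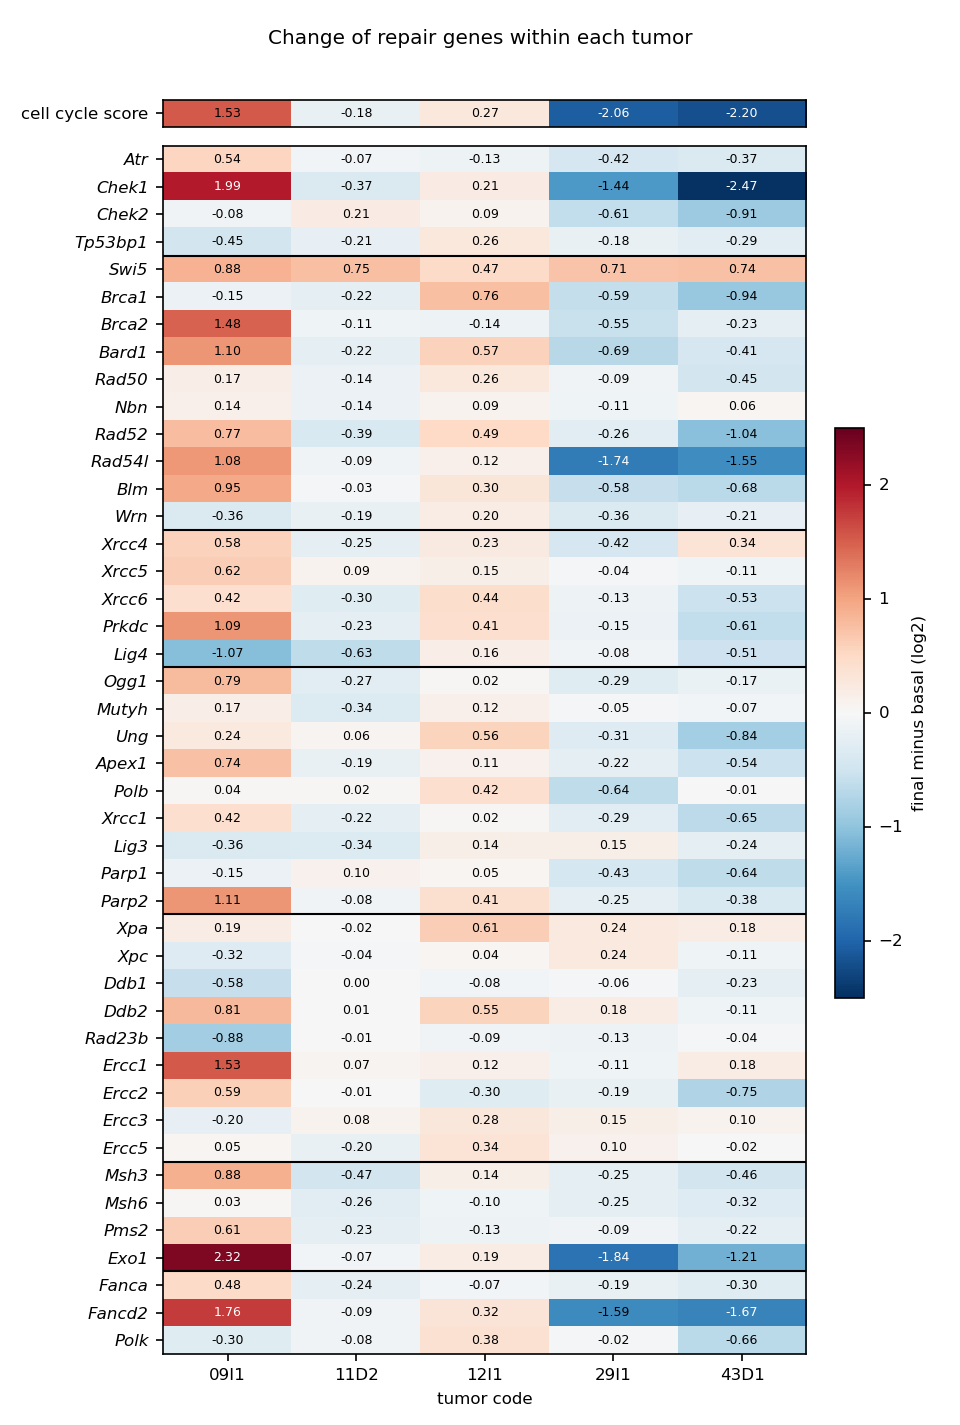
Change (final minus basal, log2) of each of the 44 measured repair genes in each of the 5 tumors, with the change of the cell cycle score in the top row; black lines separate the 7 pathways and colour gives the change. Columns 09I1 and 12I1 are mostly red, 11D2, 29I1 and 43D1 mostly blue, and Swi5 is red in all 5.

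Averaged over the 5 tumors, these opposite movements left little. With limma, which fits all probe sets with the tumor as a block, 0 of the 43 tested genes passed an adjusted p under 0.05, and neither did any of the 23281 probe sets (0%). The smallest limma adjusted p among the repair genes was 0.850. At an unadjusted p under 0.05 there was 1 repair gene of 43, Swi5, where 4.02% of all probe sets passed, and the methods' paired t-test gave the same count of 1 and 0 after Benjamini-Hochberg adjustment. The median of the 44 mean changes was -0.04, against 0.01 over all genes, and 14 genes had a positive and 30 a negative mean change, against 6462 and 5793 of all genes. The sign of this median depended on the tumors, being -0.14 when 09I1 was left out, 0.0061 when 29I1 was and 0.045 when 43D1 was. Only Swi5 and Rad23b had the same sign of change in all 5 tumors, which is 2 of 43 tested genes, against 5.83% of all genes. Basal and final arrays did not overlap for 1 of 43, again Swi5, against 0.84% of all genes.

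The direction in each tumor was the one in which its proliferation genes moved. A cell cycle score was computed for each array as the mean level of 24 mitotic genes (among them Mki67, Cdk1, Ccnb1 and Top2a, none of them a repair gene of this set), each relative to its own mean over the arrays. The score went from -0.81 to 0.73 in 09I1, a change of 1.53, and from 0.22 to 0.49 in 12I1, a change of 0.27. In 11D2 it went from 0.71 to 0.52 (-0.18), in 29I1 from 1.14 to -0.92 (-2.06) and in 43D1 from 0.06 to -2.14 (-2.20). The 2 tumors whose score was higher in the final sample were thus those in which most repair genes were higher.

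A second limma fit gave each gene's slope on this score, with group and tumor also in the model, so that it read the score apart from the mean difference between groups. Fancd2, the protein that marks crosslinked DNA for the Fanconi pathway, followed the score, with a slope of 0.89 ± 0.10 (SE) log2 units per unit of score and limma adjusted p = 0.047. It was 1 of 43 repair genes past the threshold, against 0.168% of all probe sets outside the score. Rad54l (0.75 ± 0.09, limma adjusted p = 0.065), Chek1 (1.03 ± 0.13, 0.073) and Exo1 (0.96 ± 0.15, 0.106) had slopes of similar size that did not pass. At an unadjusted p under 0.05, 13 of 43 repair genes (30.2%) had a positive slope, against 9.1% of all probe sets, and 0 had a negative one, against 6.45% of all. The positive count was 9 without 09I1, against 4.87% of all probe sets, and 8 without 43D1, against 6.83%. With all tumors, the 13 were Chek1 in damage signalling, Brca2, Bard1, Rad52, Rad54l and Blm in recombination, Prkdc in end joining, Ung, Apex1, Xrcc1 and Parp2 in base excision, Exo1 in mismatch repair and Fancd2 in crosslink repair. Slopes were above 0 for 36 of 43 repair genes (83.7%) and for 50.1% of all probe sets, with a median of 0.20 against 0.00054. Without 09I1, 39 of 43 were above 0 (90.7%), and 54.5% of all probe sets.

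The call depended on the model and on each tumor. With the block, leaving out any 1 of the 5 tumors left 0 probe sets of any gene past the threshold, although the slope of Fancd2 stayed between 0.80 and 0.92. Without 09I1 the slopes were 0.80 for Fancd2, 0.88 for Chek1, 0.75 for Rad54l and 0.71 for Exo1. Without the replicate block, 5 of 43 repair genes followed the score (Fancd2, Rad54l, Bard1, Chek1 and Exo1), against 0.585% of all probe sets. That count was 2 (Rad54l and Fancd2) without 09I1, 11D2, 12I1 or 29I1, and 1 (Rad54l) without 43D1. Over all 23246 probe sets, 105, 71, 84, 53 and 58 passed in the same order. The score and the genes come from the same 10 arrays, so the slopes describe genes that varied together in these samples.

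**Figure D2:**
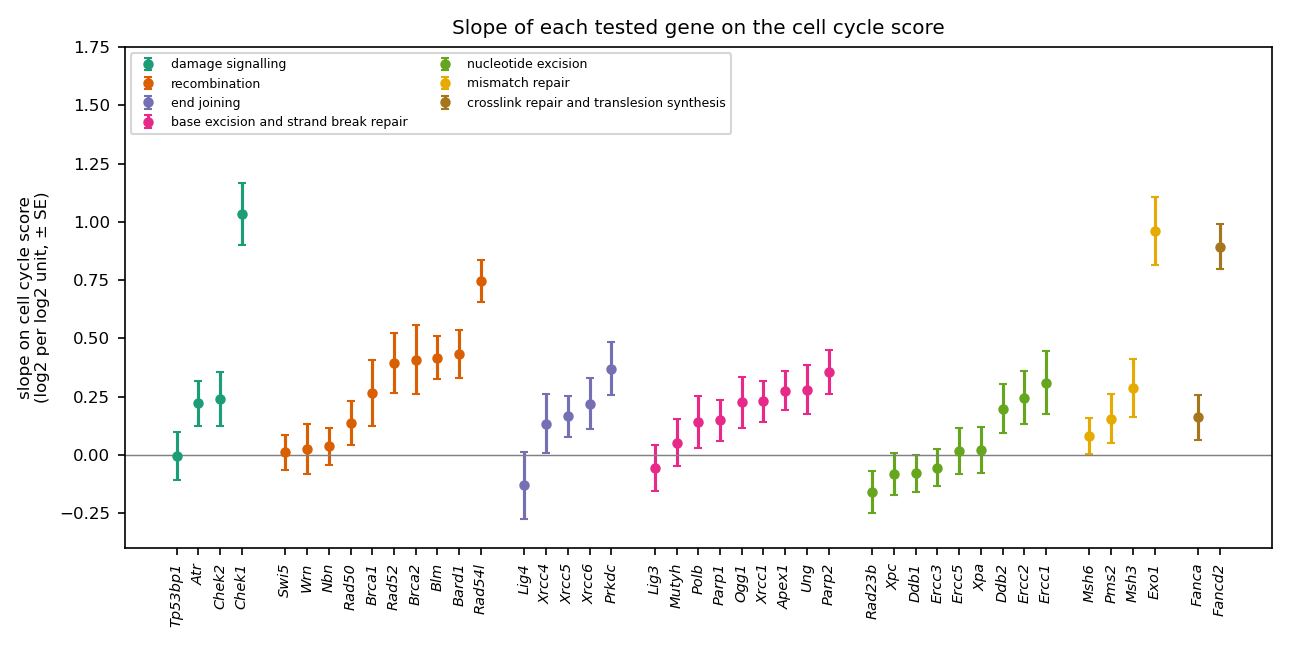
Slope of each of the 43 tested repair genes on the cell cycle score (log2 units of level per log2 unit of score, ± SE from limma), grouped and coloured by pathway and sorted within it. Chek1, Rad54l, Exo1 and Fancd2 stand above the rest, while the 9 nucleotide excision genes lie between -0.16 and 0.31 with a median of 0.02.

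**Figure D3:**
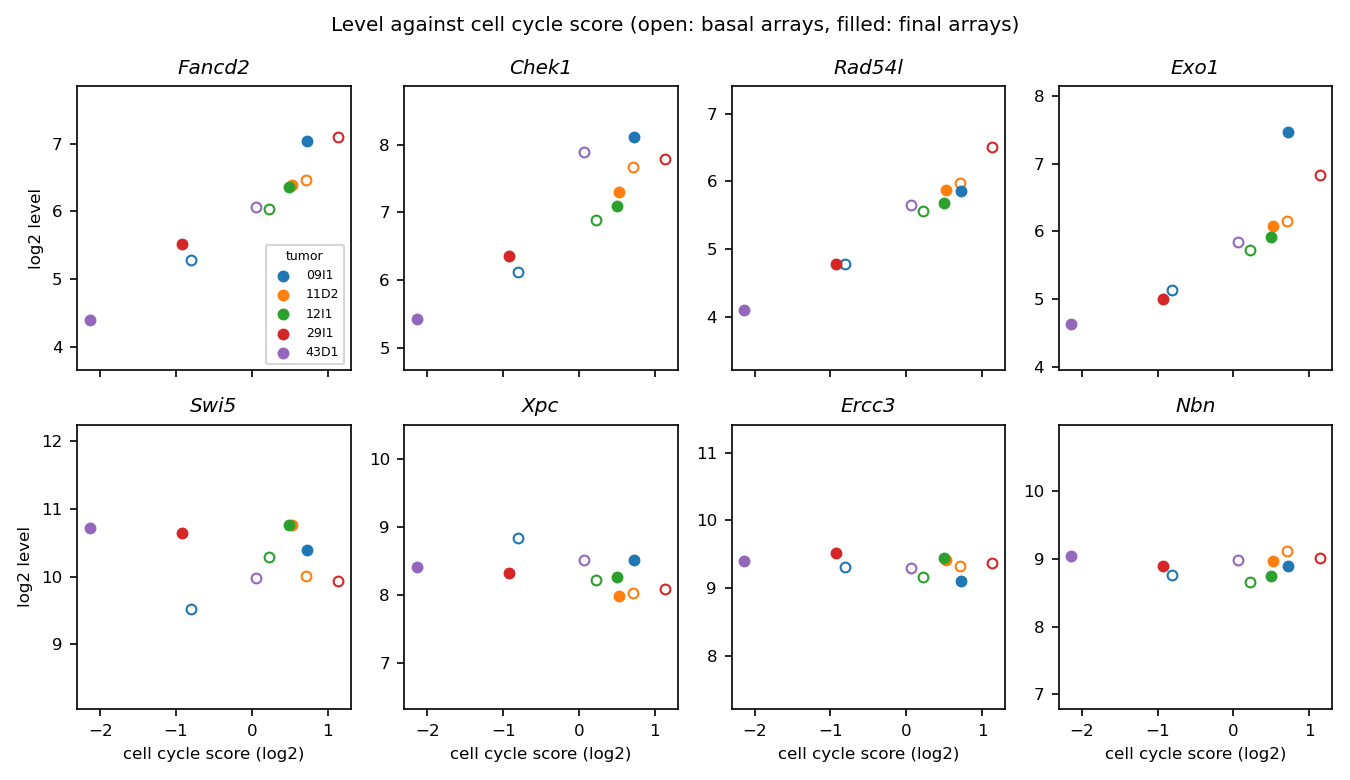
Log2 level of 8 repair genes against the cell cycle score of the same array, 10 arrays per panel, coloured by tumor, with open points for basal and filled points for final arrays. In the upper panels (Fancd2, Chek1, Rad54l and Exo1) the level increases with the score in both groups, for Chek1 unevenly among the basal arrays. Its highest basal level (7.89, in 43D1) is at a score of 0.06 and its lowest (6.12, in 09I1) at -0.81. In the lower panels (Swi5, Xpc, Ercc3 and Nbn) the level does not increase with the score.

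The promoters of 3 genes are printed because they belong to the gene that followed the score (Fancd2), the one with the steepest slope, which did not pass (Chek1), and the one with the smallest p between the groups (Swi5). Each window runs from 250 bases before to 50 bases after the RefSeq transcript start, 5′ to 3′ on the gene's strand, in the rat build GRCr8. The windows are chr4:148234458-148234757 on the plus strand for Fancd2, chr8:44629794-44630093 on the minus strand for Chek1 and chr3:35981455-35981754 on the minus strand for Swi5. Capitals mark matches to the E2F motif letters TTTGGCGC, TTTCCCGC or TTTGGCGG on either strand.
Fancd2: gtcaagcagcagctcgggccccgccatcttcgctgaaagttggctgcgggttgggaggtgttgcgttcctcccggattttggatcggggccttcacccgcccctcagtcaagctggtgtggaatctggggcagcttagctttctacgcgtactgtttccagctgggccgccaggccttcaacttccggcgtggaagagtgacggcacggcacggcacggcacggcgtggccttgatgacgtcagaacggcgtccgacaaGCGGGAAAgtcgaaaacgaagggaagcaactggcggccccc
Chek1: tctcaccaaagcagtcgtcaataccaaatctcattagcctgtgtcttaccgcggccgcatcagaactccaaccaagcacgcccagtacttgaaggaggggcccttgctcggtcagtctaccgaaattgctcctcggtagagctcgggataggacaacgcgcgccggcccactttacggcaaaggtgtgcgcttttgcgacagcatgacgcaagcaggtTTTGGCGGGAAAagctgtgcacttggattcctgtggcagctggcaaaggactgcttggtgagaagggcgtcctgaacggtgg
Swi5: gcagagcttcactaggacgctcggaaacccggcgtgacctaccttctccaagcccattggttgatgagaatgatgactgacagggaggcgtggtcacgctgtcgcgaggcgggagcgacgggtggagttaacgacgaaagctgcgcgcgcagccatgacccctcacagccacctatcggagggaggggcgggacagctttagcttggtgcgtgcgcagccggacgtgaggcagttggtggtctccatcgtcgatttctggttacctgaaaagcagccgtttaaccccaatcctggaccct
The Fancd2 window held 1 match, starting at base 10 after the start, and the Chek1 window held 2 overlapping ones, starting at -32 and -28. The Swi5 window held none, which says only that these letters are not in it. A window was listed for 36 of the 44 genes. The E2F letters occurred in 4 of these (11.1%), those of Fancd2, Chek1, Bard1 and Msh6, and in 637 of all 33469 windows (1.90%). Among the 4, the slopes on the score were 0.89, 1.03, 0.43 and 0.08, and the windows of Rad54l and Exo1 held no match. The cell cycle homology letters TTTGAA or TTCGAA occurred in 16.7% of the repair gene windows and 19.7% of all, and CCAAT, the NF-Y letters, in 44.4% and 37.5%. The repair gene windows were 1 per gene symbol, while all windows were counted without that limit, also for genes not measured here. For all 3 motifs the shares are thus of unlike sets, and their differences were not tested. A match is a description of the letters and not a measured binding site.

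The damage signalling genes had negative mean changes in 4 of 4, as did 5793 of all 12255 genes tested, with a median of -0.22 that was -0.059 without 43D1. Their medians by tumor were 0.23, -0.14, 0.15, -0.52 and -0.64 in the order 09I1, 11D2, 12I1, 29I1 and 43D1. Values by tumor are given in this order throughout. None of the 4 passed the test. Chek1, the kinase that Atr activates to hold the cell cycle when replication stalls, had the largest SD of its change (1.69) among the repair genes. Its basal levels were 6.12, 7.67, 6.89, 7.79 and 7.89, and its final levels 8.11, 7.30, 7.10, 6.35 and 5.42. The lowest basal sample (09I1) became the highest final one and the highest basal sample (43D1) the lowest final one, so the groups overlapped throughout. The mean change was -0.41 ± 0.58 (SE), and -1.02 without 09I1.

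Atr itself, the kinase of single-stranded DNA at stalled forks, had a narrower range. Its levels were 5.52, 5.69, 5.88, 5.93 and 5.99 in the basal samples and 6.06, 5.62, 5.75, 5.51 and 5.62 in the final ones. It was lower in 4 of 5 tumors and higher in 09I1, with overlapping groups and a mean change of -0.09 ± 0.18 (SE), which was -0.25 without 09I1. Chek2, which acts downstream of Atm, had basal levels of 5.60, 6.30, 6.16, 6.34 and 6.17 and final levels of 5.52, 6.51, 6.25, 5.73 and 5.26. It was clearly lower only in 29I1 and 43D1, and its mean change was -0.26 ± 0.21 (SE). Tp53bp1, a chromatin reader that steers breaks to end joining, had a mean change of -0.17 and was higher in 12I1 alone. Its second probe set changed in the opposite direction on average (0.06).

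Swi5 was the recombination gene with the same sign of change in all 5 tumors. Swi5 forms a complex with Sfr1 that acts in recombination. Its basal levels were 9.52, 10.02, 10.30, 9.93 and 9.98, and its final levels 10.40, 10.77, 10.77, 10.65 and 10.72. The highest basal sample (12I1) lay below the lowest final one (09I1), and every tumor was higher in its final sample, by 0.88, 0.75, 0.47, 0.71 and 0.74. The mean change was 0.71 ± 0.12 (SE), or 1.63-fold, with an unadjusted limma p of 0.00044 and a limma adjusted p of 0.850 over all probe sets, so it did not pass. Without 09I1 the change was 0.67. The limma adjusted p ranged from 0.135 (with array weights) to 0.999 over the alternatives. Its slope on the cell cycle score was 0.01 ± 0.07 (SE), and its partner Sfr1 had a mean change of -0.01, with changes of -0.26, -0.11, 0.23, 0.06 and 0.05. Of the 10 marker lists of other cell types and tumor epithelium, 1 also had the same sign in all 5 tumors: the red blood cell genes, 5 measured of 6 listed, had mean changes of -1.27, -1.29, -3.06, -1.43 and -0.53, and their mean level lay between 5.93 and 8.92 in basal and between 5.33 and 7.23 in final samples. The part of these blood genes in the difference of Swi5 was not tested.

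**Figure D4:**
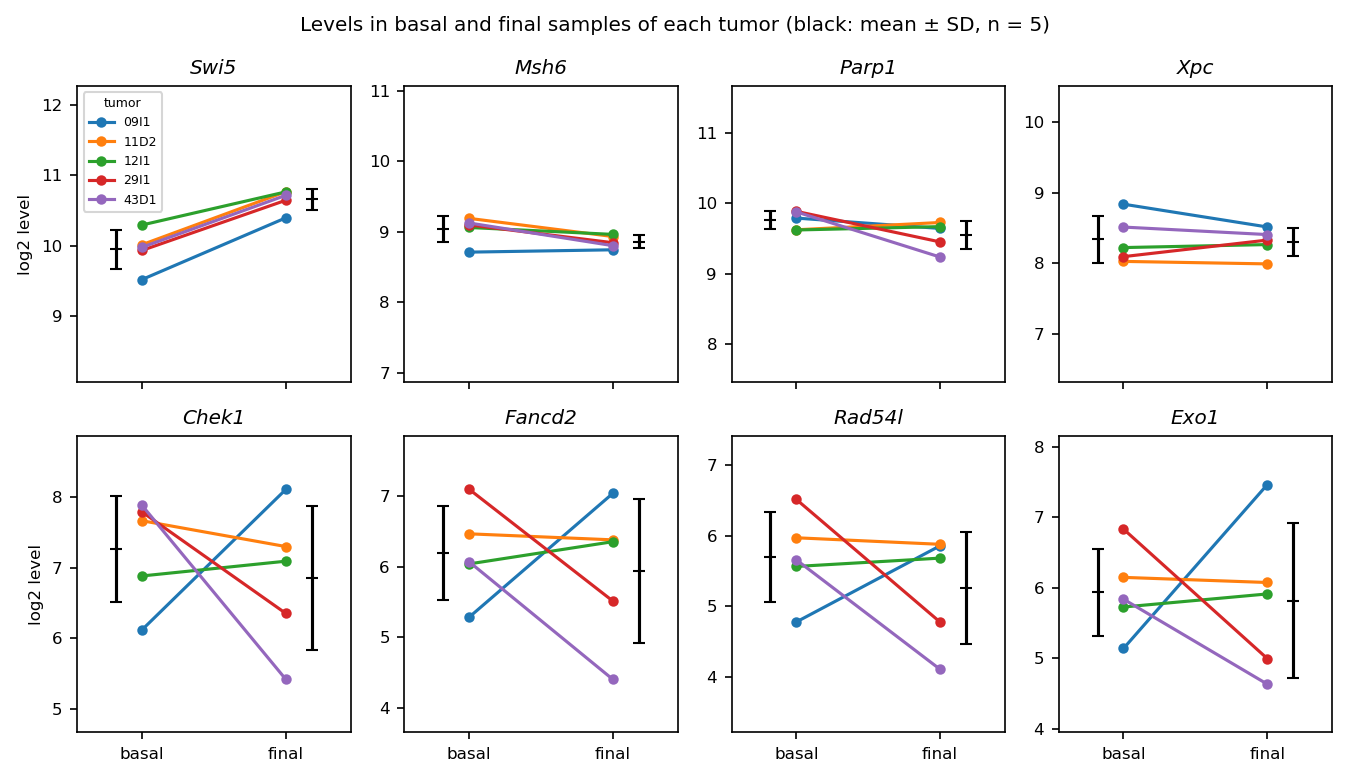
Log2 levels of 8 repair genes in the basal and final sample of each tumor, joined by a line per tumor, with the group mean ± SD (n = 5) in black at the sides; every panel spans the same range of log2 units. Swi5 lines all go upward without overlap of the groups, Msh6 and Xpc have changes between -0.32 and 0.24, Parp1 is lower in 29I1 and 43D1 (-0.43 and -0.64), and the lines of Chek1, Fancd2, Rad54l and Exo1 cross.

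The other 9 recombination genes had no common direction across tumors. The pathway's medians by tumor were 0.82, -0.14, 0.28, -0.46 and -0.43, the widest range of the 7 pathways, and the SD of the change had a median of 0.65 over its genes, against 0.41 over all genes. Rad54l, a motor protein that drives strand exchange, had basal levels of 4.77, 5.97, 5.56, 6.51 and 5.66 and final levels of 5.86, 5.88, 5.68, 4.77 and 4.10. It was higher by 1.08 in 09I1 and had changes of -1.74 and -1.55 in 29I1 and 43D1, with a mean change of -0.44 ± 0.42 (SE). Leaving out 09I1 gave -0.82, leaving out 29I1 gave -0.11 and leaving out 43D1 gave -0.16. Its final level in 43D1 was at the lower quartile of that array (4.09), so the size of that difference is uncertain.

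Brca1 and Bard1 form the ubiquitin ligase that opens recombination, and did not move alike in every tumor. Brca1 had basal levels of 4.23, 5.49, 4.85, 5.48 and 5.23 and final levels of 4.08, 5.28, 5.61, 4.89 and 4.29. It was higher in 12I1 alone, and its mean change was -0.23 ± 0.24 (SE). Bard1 had basal levels of 4.35, 5.04, 4.59, 5.11 and 4.39 and final levels of 5.45, 4.82, 5.16, 4.42 and 3.98. It was higher in 09I1 and 12I1 and lower in the other tumors, with a mean change of 0.07 ± 0.27 (SE) that was -0.19 without 09I1. Several of these levels were close to the arrays' lower quartiles, which were at most 4.13 on 9 arrays and reached 4.29 on the final array of 09I1.

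Brca2, a recombination gene whose inherited mutations predispose to breast cancer, had basal levels of 6.42, 6.93, 6.80, 7.29 and 6.62 and final levels of 7.90, 6.82, 6.67, 6.74 and 6.38. The final sample of 09I1 stood above the 9 other values, and the gene was lower in the other 4 tumors. The mean change was 0.09 ± 0.30 (SE), and -0.26 without 09I1. Rad50 and Nbn, which with Mre11 bind broken ends, had mean changes of -0.05 and 0.01, and Rad52, an annealing protein, one of -0.09. Of the RecQ helicases, Blm had a mean change of -0.01 with a slope of 0.42 on the score, and Wrn one of -0.19 with a slope of 0.02.

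End joining, which seals breaks without a template, had medians by tumor of 0.58, -0.25, 0.23, -0.13 and -0.51. None of its 5 genes passed the test. Prkdc, the catalytic subunit of the DNA-dependent kinase, had basal levels of 7.56, 7.85, 7.50, 7.84 and 7.96 and final levels of 8.66, 7.62, 7.91, 7.69 and 7.35. The final sample of 09I1 was again the highest of all, and the groups overlapped. The mean change was 0.10 ± 0.26 (SE), and -0.14 without 09I1.

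Xrcc5, a Ku subunit that caps broken ends, was steadier. Its basal levels were 7.61, 7.98, 7.88, 7.92 and 8.04 and its final levels 8.23, 8.07, 8.03, 7.88 and 7.93. Most of its mean change of 0.14 ± 0.16 (SE) came from 09I1, without which it was 0.02, and a second probe set had a mean change of -0.03. The other Ku subunit, Xrcc6, had a mean change of -0.02. Lig4, the ligase of this pathway, had a mean change of -0.43 ± 0.21 (SE), or -0.26 without 09I1, with a second probe set of similar level at 0.01, and its partner Xrcc4 one of 0.10.

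Base excision and strand break repair had medians by tumor of 0.24, -0.19, 0.12, -0.29 and -0.38, and none of its 9 genes passed. Parp1, which senses strand breaks and is the main target of PARP inhibitors, had basal levels of 9.79, 9.62, 9.62, 9.89 and 9.88 and final levels of 9.64, 9.73, 9.67, 9.45 and 9.24. Its changes were -0.43 in 29I1 and -0.64 in 43D1 and lay between -0.15 and 0.10 elsewhere, with a mean change of -0.21 ± 0.15 (SE). Parp2, the related polymerase, had basal levels of 8.22, 8.53, 8.11, 8.74 and 8.55 and final levels of 9.33, 8.45, 8.52, 8.49 and 8.17. It varied most in this pathway, being higher by 1.11 in 09I1. Its mean change was 0.16 ± 0.24 (SE), and -0.08 without that tumor.

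The other base excision genes had mean changes between -0.14 and 0.02 by their brightest probe sets. The glycosylases, which remove bases, were Ogg1 at 0.02, Mutyh at -0.03 and Ung at -0.06. Apex1, which cuts the site left behind, had -0.02, with a dim second probe set at 0.15. Polb, which fills the gap, had -0.03, and Xrcc1 and Lig3, the scaffold and ligase, -0.14 and -0.13. Second probe sets had mean changes of -0.14 for Polb and -0.41 for Lig3, the latter with changes from -1.35 in 09I1 to 0.53 in 12I1.

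Nucleotide excision repair, which cuts out bulky lesions, had the medians that spread least between tumors. They were 0.05, -0.01, 0.12, 0.10 and -0.04, and the SD of the change had a median of 0.24 over its 9 genes. None passed the test. The median near 0 in 09I1 came from opposite changes, 5 genes higher and 4 lower, from -0.88 for Rad23b to 1.53 for Ercc1. Xpc, which recognises the lesion, had basal levels of 8.84, 8.02, 8.22, 8.09 and 8.51 and final levels of 8.51, 7.99, 8.26, 8.33 and 8.40. The groups overlapped fully and the mean change was -0.04 ± 0.14 (SE), or 0.03 without 09I1. Ddb2, a damage sensor and p53 target, had basal levels of 7.16, 7.04, 6.46, 6.73 and 7.28 and final levels of 7.97, 7.05, 7.01, 6.91 and 7.17. By its brightest probe set it was higher in 4 of 5 tumors, most in 09I1, with a mean change of 0.29 ± 0.19 (SE) that was 0.16 without 09I1. A dimmer second probe set of Ddb2 had a mean change of 0.04, with changes of 0.06, -0.26, 0.23, -0.0045 and 0.18.

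Rad23b, the partner of Xpc, was lower in all 5 tumors by its brightest probe set. Its basal levels were 11.11, 11.17, 11.18, 11.12 and 11.15 and its final levels 10.23, 11.17, 11.09, 10.99 and 11.10. The change of -0.88 in 09I1 stood far from the others, which lay between -0.13 and -0.01, so the mean change of -0.23 ± 0.16 (SE) became -0.07 without it. A dimmer second probe set of Rad23b did not keep 1 sign, with changes of -2.21, 0.23, 0.69, -0.10 and -0.08. Ercc1, a subunit of the nuclease that cuts 5′ of the lesion, had basal levels of 8.09, 8.42, 8.41, 8.38 and 8.37 and final levels of 9.62, 8.49, 8.53, 8.27 and 8.55. Here too 09I1 alone set the size, and the mean change of 0.36 ± 0.25 (SE) was 0.07 without it. The remaining mean changes were 0.24 for the scaffold Xpa, -0.19 for Ddb1, -0.13 and 0.08 for the TFIIH helicases Ercc2 and Ercc3, and 0.06 for the nuclease Ercc5. That of Ddb1 was -0.09 without 09I1. Another Ddb1 probe set of similar level had a mean change of -0.34, and a dimmer one -0.00069.

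Mismatch repair had medians by tumor of 0.74, -0.24, 0.02, -0.25 and -0.39, and none of its 4 genes passed. Exo1, the exonuclease that removes the mispaired strand and also trims breaks, had basal levels of 5.14, 6.15, 5.73, 6.83 and 5.84 and final levels of 7.46, 6.07, 5.91, 5.00 and 4.63. It was higher by 2.32 in 09I1 and had changes of -1.84 in 29I1 and -1.21 in 43D1, and Chek1 had the same signs in these tumors. The mean change was -0.12 ± 0.55 (SE), and -0.73 without 09I1. Msh6, the mismatch sensor, was by contrast narrow, with basal levels of 8.71, 9.19, 9.06, 9.10 and 9.13 and final levels of 8.75, 8.94, 8.97, 8.85 and 8.81. Its changes lay between -0.32 and -0.10 in 4 tumors and nearly equal in 09I1, with a mean change of -0.18 ± 0.13 (SE). Msh3, which binds larger loops, had a mean change of -0.03, and Pms2, the nuclease subunit, one of -0.01.

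Of the crosslink and translesion genes, Fancd2 had basal levels of 5.29, 6.47, 6.04, 7.10 and 6.07 and final levels of 7.04, 6.38, 6.36, 5.51 and 4.40. It was higher by 1.76 in 09I1 and had changes of -1.59 and -1.67 in 29I1 and 43D1, so that its mean change was -0.25 ± 0.50 (SE), and -0.76 without 09I1. Fanca, of the complex that ubiquitinates Fancd2, moved in a narrower range, with a mean change of -0.06. Polk, a polymerase that copies past lesions, had basal levels of 3.75, 4.10, 4.20, 4.11 and 4.57 and final levels of 3.45, 4.02, 4.58, 4.09 and 3.91. Most of these are near or below the lower quartile of the arrays, and the mean change of -0.14 was not tested.

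**Figure D5:**
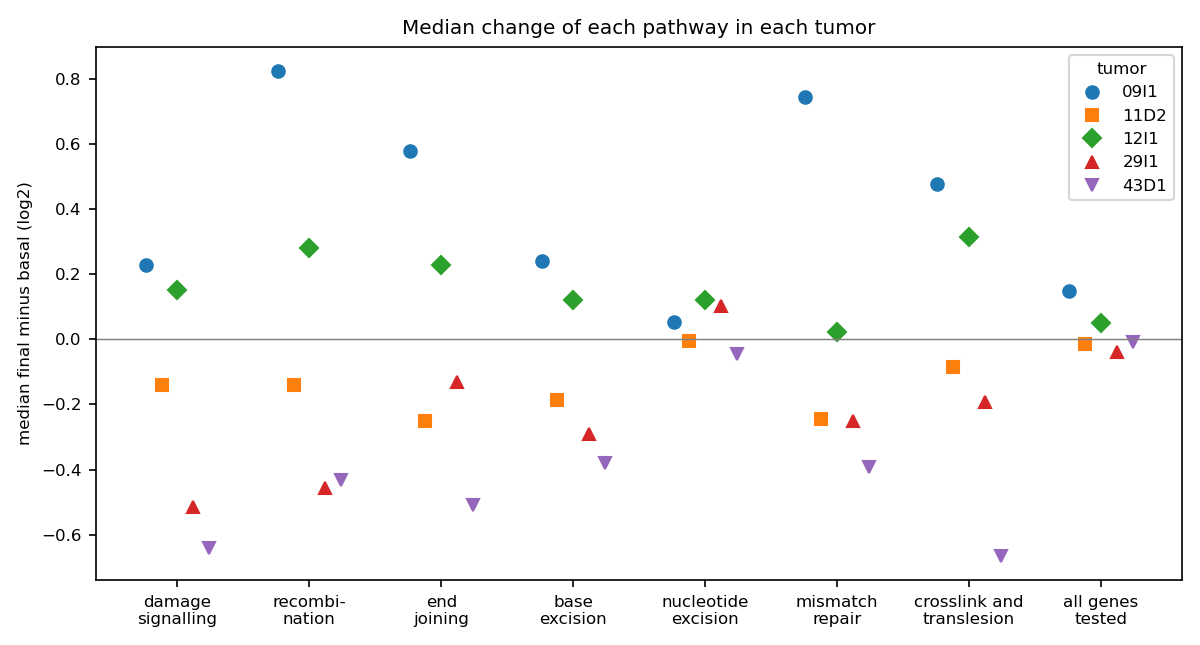
Median change (final minus basal, log2) of each pathway's measured genes in each tumor, one symbol and colour per tumor, with all 12255 tested genes at the right. The medians of the tumors spread from -0.46 to 0.82 for recombination and from -0.04 to 0.12 for nucleotide excision.

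The other genes of the same pathways, 68 measured of 90 listed, showed the same split between tumors, with medians of 0.56, -0.10, 0.13, -0.19 and -0.26. Of the 66 tested, 0 were higher and 0 lower at a limma adjusted p under 0.05, and 0 followed the score. At an unadjusted limma p under 0.05, 1 of the 66 was higher and 0 lower, where 4.02% of all probe sets passed. The 1 gene was Mgmt, which removes alkyl groups from guanine, with a mean change of 0.59 ± 0.24 (SE) that was 0.38 without 09I1. Ube2t, the enzyme that passes ubiquitin to Fancd2, had a slope on the score of 1.04 ± 0.12 (SE), with limma adjusted p = 0.065. Rpa1, which coats single-stranded DNA, and Ercc8, of transcription-coupled repair, were lower in 5 of 5 tumors, with mean changes of -0.21 and -0.10 that did not pass the test. They were the 2 of 66 with the same sign in all tumors, against 5.83% of all genes.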

How the data were processed

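Total RNA of 10 rat mammary tumor samples had been hybridised to Affymetrix rat expression arrays. The deposited log2 values were made by the authors with robust multichip averaging (RMA), per the labels and the submitters' processing notes. The design text also names a filter on controls and dim signals and Student's test for pairs, run in GeneSpring GX 7.3. Among the 31099 probe sets of the deposited table, 57 were controls. Of its probe sets, 20826 carried 1 gene symbol, 436 several and 9780 none, from the platform annotation.

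Controls and the dimmest 25% of probe sets were left out, and 23281 were fitted in limma 3.58.1 (R 4.3.3) with a fixed tumor block, an intensity trend and Benjamini-Hochberg adjustment over all of them at 0.05. Pairs were taken from the tumor codes in the labels, and a random block gave a correlation within tumors of 0.0017. The cell cycle fit left out the probe sets of the 24 score genes of 25 listed, which left 23246. Of 11 genes with several probe sets past the filter, 4 had probe sets of opposite sign (Tp53bp1, Xrcc5, Lig4 and Apex1). Both fits were tested on simulated data without tumor effects, with changes and slopes larger than those of the repair genes. This does not show how the fits do at the sizes seen here. The members, lists, named genes and tests were chosen with earlier results of these data known. Values in every array are given for genes chosen for their role, for those with 1 sign in all 5 tumors or an unadjusted p under 0.05, and for the most variable gene of each pathway. Alternatives were no block or a random block, other filters, scalings, array weights, no trend, probe set means, Mki67 as the score and leaving out each tumor. The number of arrays limits the precision. Promoter windows are from RefSeq, and figures were drawn with matplotlib 3.10.9.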

Additional observations from a re-analysis of the deposited data

Results flagged for a closer look

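In 12 of 88 sets of 5 values, 1 sample lay far from the other 4 by Dixon's test at 0.71, where chance gives about 4.4. Of these, 8 were on the final array of tumor 09I1, whose actin probe sets differed as described. There, Brca2 was at 7.90 (others 6.38 to 6.82), Ddb2 at 7.97 (6.91 to 7.17), Ercc1 at 9.62 (8.27 to 8.55), Ercc2 at 6.75 (5.78 to 6.00) and Pms2 at 8.24 (7.46 to 7.63), above the other final arrays. On the same array Ddb1 was at 10.31 (10.71 to 10.83), Rad23b at 10.23 (10.99 to 11.17) and Ercc3 at 9.11 (9.40 to 9.52), below them. On the basal array of 09I1, Chek2 at 5.60 (6.16 to 6.34), Ercc1 at 8.09 (8.37 to 8.42) and Msh6 at 8.71 (9.06 to 9.19) lay below the other basal arrays. In the final sample of 29I1, Polb was at 7.81 (8.36 to 8.54).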

How the results depend on the processing

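The count of repair genes changed between groups was 0 under every alternative run. The count that followed the cell cycle score was 1 with the tumor as a block, against 39 of all 23246 probe sets. It was 5 with no replicate block (136 of all probe sets) and 5 with a random block (154). Array weights gave 3 (60 of all) and no intensity trend 2 (50 of all). With probe set means it was 2, against 39 of 12231 genes. It was 0 with the lowest 50% left out (41 of 15490 probe sets), where 36 repair genes were tested and Rad54l, Exo1 and Bard1 were not. Fancd2 there had a slope of 0.89 and a limma adjusted p of 0.0506. With Mki67 as the score, and without any 1 tumor, the count was 0, as over all probe sets. With no block the count was 2 without each of 09I1, 11D2, 12I1 and 29I1 and 1 without 43D1, against 53 to 105 of all probe sets. These last alternatives were added after seeing the data. The replicate block changed no other call. With array weights, which count aberrant arrays less, the changes of Brca2 (-0.15), Bard1 (-0.16), Prkdc (-0.14) and Parp2 (-0.044) turned negative. Leaving out each tumor gave ranges that crossed 0, namely -0.26 to 0.25 for Brca2, -0.19 to 0.26 for Bard1, -0.14 to 0.28 for Prkdc, -0.11 to 0.034 for Xpc, -0.076 to 0.30 for Parp2, -0.73 to 0.31 for Exo1, -0.76 to 0.10 for Fancd2 and -1.02 to 0.10 for Chek1. Medians that crossed 0 were those of all repair genes (-0.14 to 0.045), recombination (-0.22 to 0.10), end joining (-0.13 to 0.17), base excision (-0.15 to 0.0052), mismatch repair (-0.25 to 0.058) and nucleotide excision (-0.014 to 0.083, the lowest without 12I1). The cause was not tested. Signals near the arrays' lower quartile limit Polk, Brca1 and Bard1. On the final array of 43D1, which had the lowest score (-2.14), Rad54l was at 4.10 and Fancd2 at 4.40, against a lower quartile of 4.09.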
